A study of Mus musculus with 6 samples.

Results

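The 2 RIP-seq libraries made from mouse left ventricles after 4 h of angiotensin II (AngII) were compared here for messenger RNAs, the anti-EZH2 library against the normal IgG library. They are 2 of the 6 libraries of the series. In RIP-seq, RNA that comes down together with the protein an antibody recognises is sequenced, and IgG without a target gives the background of the procedure. The mice were C57BL/6 males of 10 weeks. In the AngII 4 h group, AngII was infused for 4 h at 1 mg/kg/min, the rate written in the labels, from an osmotic minipump under the skin. The Sham group (saline in the methods, untreated in the labels) and the AngII 24 h group served only for setting ratios side by side. Each group had 2 mice, and 2 RIP products of a group were pooled into each library, so that every group and antibody had 1 library. No replicate exists, no test across replicates was possible, and every ratio below compares a pair of libraries rather than a pair of conditions.

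EZH2 is the catalytic subunit of Polycomb repressive complex 2 (PRC2), which methylates lysine 27 of histone H3 and keeps developmental genes silent. EED and SUZ12 are the core partners without which EZH2 is not active. PRC2 binds many RNAs in vitro, with a known preference for runs of guanine, and nascent messenger RNAs are among the RNAs it is known to touch. In the adult ventricle most of the messenger RNA comes from cardiomyocytes and codes for contraction and energy supply.

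All 10 cardiomyocyte markers had an FPKM (fragment count scaled to transcript length and to library size) above 1 in both libraries, with summed values of 11526 in IgG and 10333 in anti-EZH2. Markers of other cells were present at lower levels. The summed FPKM was 50.2 and 54.4 for 7 fibroblast markers, 301 and 307 for 25 endothelial markers, 120 and 121 for 13 smooth muscle and pericyte markers, and 63.1 and 61.9 for 29 leukocyte markers, in IgG and anti-EZH2. All 5 adipocyte markers were listed at 0 in both libraries, as were Bmp10 and Sln of 8 atrial markers in the tables. A listed 0 need not mean that a gene was not expressed, since a widely used gene such as Apex1 was also listed at 0 in the anti-EZH2 library. In bulk tissue, fewer cells of a type and less RNA per cell cannot be told apart. The FPKM steps of lowly expressed genes placed about 5279312 fragments in the IgG library and 7922596 in the anti-EZH2 library. In the other 4 libraries this estimate was between 3804265 and 5753861.

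Most messenger RNAs were recovered alike by both antibodies. Of 20869 protein-coding genes found in both deposited forms of table (a separate table of each library and a table of the whole series), 4332 were measured at AngII 4 h. Measured means an FPKM above 0 in both libraries and above 1 in at least 1 of them, in both forms. A gene was named EZH2-enriched when its anti-EZH2/IgG ratio was above 2 in both forms, and IgG-enriched when the ratio was under 0.5 in both. By this rule 358 genes (8.26% of the measured) were EZH2-enriched and 332 (7.66%) were IgG-enriched. The sets were thus of about the same size in both directions. The other measured genes were past 2-fold in neither direction or in 1 form alone.

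The centre of the ratios depended on the form of table. The median log2 ratio of the measured genes was -0.13 (quartiles -0.54 and 0.31) in the separate tables and 0.15 (quartiles -0.29 and 0.62) in the series table, a shift of 0.28. Group medians below are therefore given beside the median of all genes of the same form. Across the 4332 genes, Spearman's rho of the ratio between forms was 0.88. When each form was read alone over these genes, the separate tables had 414 genes above 2 and 536 under 0.5, and the series table had 597 and 379. The larger set was therefore IgG in the first form and anti-EZH2 in the second. Opposite calls in the 2 forms were met in 1 gene and in 5 genes, in the respective directions.

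**Figure D1:**
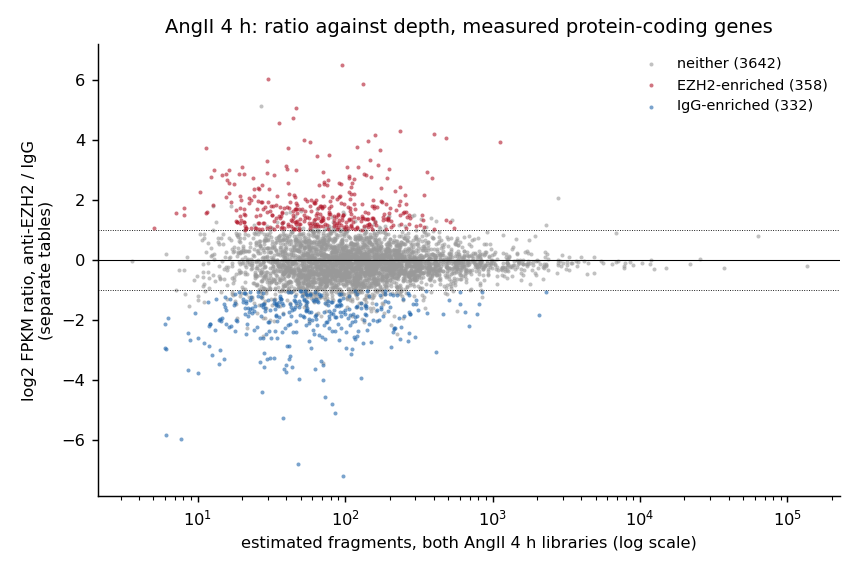
Log2 FPKM ratio of anti-EZH2 to IgG at AngII 4 h (separate tables, y axis) against the estimated number of fragments of both libraries (x axis, log scale), 1 point for each of 4331 measured genes with an estimate. Red, EZH2-enriched; blue, IgG-enriched; grey, neither; dotted lines mark 2-fold. The cloud narrows to the right, with few coloured points beyond 640 fragments.

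Genes past 2-fold were mostly genes with few fragments. Fragments behind a gene were estimated from its FPKM at the median length of its protein-coding transcripts, and the median measured gene had 108 in both libraries together. EZH2-enriched genes had a median of 68.1, IgG-enriched genes 55.3 and the others 119. Among the 182 genes with up to 20 fragments, 17.0% were EZH2-enriched (Wilson 95% interval 12.3% to 23.2%) and 23.6% were IgG-enriched (18% to 30.3%). Among the 286 genes with more than 640 fragments, 0.350% were EZH2-enriched (0.0617% to 1.95%) and 2.45% were IgG-enriched (1.19% to 4.97%). The distance between the quartiles of the log2 ratio was 2.00 in the first of these classes and 0.33 in the last. The Wilson intervals rest on the number of genes in a class and treat genes as independent draws, which they need not be. The exact intervals below rest on fragment counts estimated from FPKM and cover counting error only. Neither kind covers variation between replicate libraries.

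**Figure D2:**
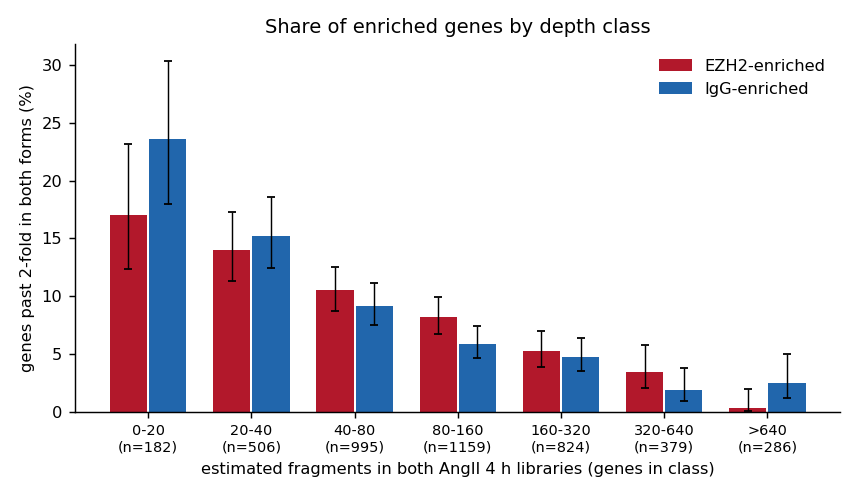
Percent of measured genes that were EZH2-enriched (red) or IgG-enriched (blue) in 7 classes of estimated fragments, shown as bars with Wilson 95% intervals as thin lines and the number of genes under each class. Both shares are highest in the class of up to 20 fragments, 17.0% and 23.6%, and lowest or near lowest above 640, 0.350% and 2.45%.

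The deposited FPKM intervals gave a stricter view of the same genes. In 32 EZH2-enriched genes (0.739% of the measured) the intervals of the 2 libraries did not overlap. The same held for 51 IgG-enriched genes (1.18%). In 139 of the measured genes the FPKM of at least 1 library lay outside its own deposited interval. Among them are Lars2, Tmem161a, Myl2, Rpl22l1, Snrpg, Mrpl48 and Psmb4 below, whose ratios are less certain for this reason. The 15 genes of each kind with the widest gap between the intervals, as a ratio of limits, are described next.

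The EZH2-enriched genes with the widest gaps were lowly expressed and came from unrelated pathways. Zfp488 (chromosome 14:33967070-33978764, minus strand, GRCm38), a zinc finger transcription factor gene of 1 transcript, stood first. Its FPKM was 0.556 in IgG (deposited interval 0.265 to 0.840) and 2.99 in anti-EZH2 (2.36 to 3.61), a ratio of 5.37, and the series table gave 5.21. This corresponded to an estimated 12 and 97 fragments, with an exact Clopper-Pearson 95% interval of the ratio from 2.95 to 10.8. Zfp488 was the only EZH2-enriched gene of 1 transcript whose exact interval lay above 2. Tomm7, a small subunit of the mitochondrial import channel, had 9 fragments in IgG and 55 in anti-EZH2. Its FPKM was 1.86 and 7.47, with an exact interval of the ratio from 2.00 to 9.37.

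Several of the other named genes serve protein and RNA synthesis. Eef1e1, a scaffold of the aminoacyl-tRNA synthetase complex, was at 0.459 FPKM in IgG and 3.47 in anti-EZH2, with ratios of 7.57 and 8.93 in the separate and series tables. Rrp9, which binds the U3 snoRNA in ribosome assembly, was at 1.26 and 12.5, with ratios of 9.93 and 20.9. For Arl6ip4, an RNA splicing regulator gene, the values were 0.732 and 11.6, and the ratios 15.8 and 14.7. Its IgG interval reached from 0 to 3.38, so the size of the ratio is poorly set. Spcs2, a signal peptidase subunit, had the lowest anti-EZH2 value of the 15, at 0.583 and 1.77, with ratios of 3.04 and 3.85.

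Another set of the 15 is known from the heart, the vessels or signalling. Kcnj3, a subunit of the acetylcholine-gated potassium channel of heart muscle, was at 1.29 in IgG and 3.42 in anti-EZH2, and the ratio was near 2.7 in both forms (2.66 and 2.67). Tm4sf1, an endothelial surface protein, was at 1.25 and 6.02 with ratios of 4.82 and 4.45. Fkbp5, a co-chaperone of the glucocorticoid receptor that glucocorticoids induce, was at 3.49 and 8.03 with ratios of 2.30 and 2.76. It had the most fragments of the 15, an estimated 269. Ppp1r2, an inhibitor of protein phosphatase 1, was at 2.82 and 8.09, and its ratios were 2.86 and 2.97. The others were Ctla2a, a protease inhibitor (0.466 and 2.63), Zfp397 (0.864 and 2.18), Atg10, an autophagy enzyme (0.811 and 2.76), Txnl1, a thioredoxin-like protein (1.13 and 2.98), and Fgd4, an exchange factor for CDC42 (1.72 and 4.33). In each of the 15 the anti-EZH2 library was the higher in both forms, which the rule requires.

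The IgG-enriched genes with the widest gaps were of unrelated pathways as well and had a higher FPKM in their leading library, from 2.15 to 36.6. Ict1, a peptide-release factor of the mitochondrial ribosome, was the highest, at 36.6 FPKM in IgG (23.8 to 49.3) and 11 in anti-EZH2 (6.13 to 16), with ratios of 0.301 and 0.313. Vapb, an anchor of the endoplasmic reticulum at contact sites, was at 15.2 and 4.39 with ratios of 0.289 and 0.311. Cnot2, a subunit of the CCR4-NOT deadenylase, was at 16.3 and 2.17. Timm50 and Surf1 serve mitochondrial import and assembly of cytochrome oxidase. Timm50 was at 16.1 and 4.04, and Surf1 at 12.3 and 2.86. Their direction was the opposite of that of the import gene Tomm7.

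Pdcd2, a chaperone of a ribosomal protein, had the most extreme ratios of the 15, 0.0262 and 0.0191, at 5.21 in IgG and 0.136 in anti-EZH2. About 37.7 fragments stood behind them. Yeats4, a reader of acetylated histones, was at 4.26 and 1.04 with ratios of 0.244 and 0.299. Rbm7, of the nuclear exosome targeting complex, was at 2.15 and 0.392. For Bphl, Vps29, Tmcc1, Naa15, Cand1, Stx7 and Otud6b the ratio in the separate tables was between 0.114 (Cand1) and 0.436 (Otud6b), and the series table gave between 0.200 (Bphl) and 0.494 (Otud6b).

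**Figure D3:**
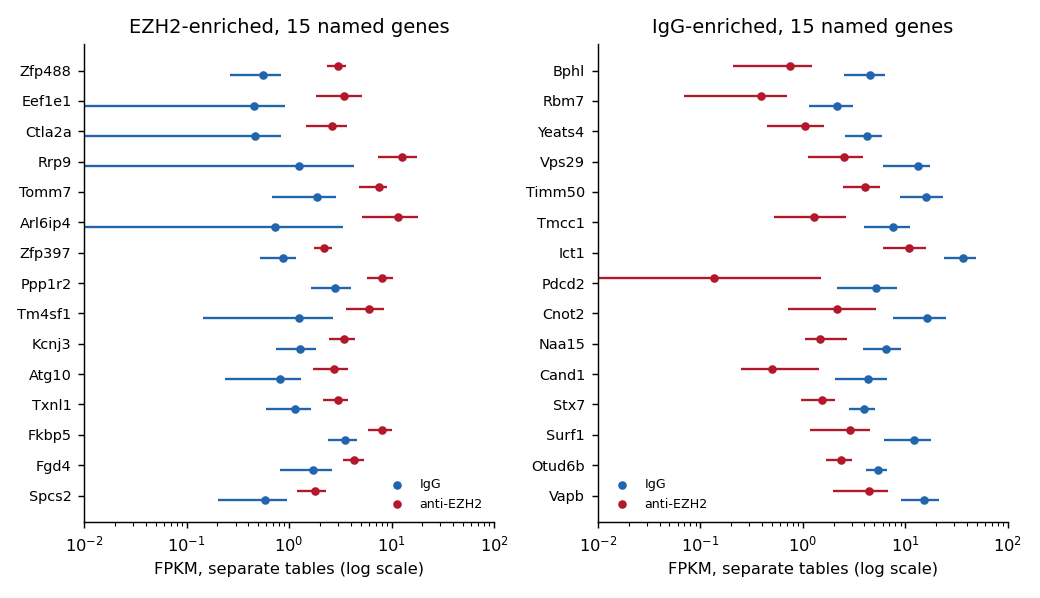
FPKM of the separate tables (x axis, log scale) in the IgG (blue) and anti-EZH2 (red) library of AngII 4 h for the 15 EZH2-enriched and 15 IgG-enriched genes with the widest gap between deposited intervals. Points are FPKM, lines the deposited intervals, and a line that starts at the left edge has a lower limit of 0 or under 0.01. EZH2-enriched genes lie between 0.459 and 3.49 in IgG, IgG-enriched genes between 2.15 and 36.6.

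Guanine runs were looked for because PRC2 is known to bind them. The motif searched was 4 runs of GGG separated by 1 to 7 bases, on the sense strand of the longest protein-coding transcript (GENCODE M21, GRCm38). Its complement, 4 runs of CCC, was counted as well. Of the 15 named EZH2-enriched genes 3 held the guanine motif, and of the 15 named IgG-enriched genes 2 did. The shortest window of 4 of these 5 transcripts is printed from 5′ to 3′ with the guanine runs in capitals, to show that the motif was met on both sides.
Ctla2a, EZH2-enriched: GGGactGGGtGGGtaGGG
Fkbp5, EZH2-enriched: GGGGGGGtGGGGGtGGG
Fgd4, EZH2-enriched: GGGctGGGaacataGGGttagcaGGG
Tmcc1, IgG-enriched: GGGcGGGccGGGaGGG
The Ctla2a window lies at chr13:60934259-60934276 (minus strand) in the 3′ UTR, in the last exon (exon 5). That of Fkbp5 lies at chr17:28400865-28400881 (minus strand) in the 3′ UTR, exon 14. The Fgd4 window, in exon 1 (5′ UTR), is at chr16:16560178-16560203 on the minus strand. For Tmcc1 it is at chr6:116193373-116193388 on the minus strand, also in exon 1 and the 5′ UTR.

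Over all genes the guanine motif was as frequent among EZH2-enriched mRNAs as elsewhere. It was in 75 of 358 EZH2-enriched genes (20.9%, Wilson 95% interval 17.1% to 25.5%), in 57 of 332 IgG-enriched genes (17.2%, 13.5% to 21.6%) and in 900 of the 4332 measured genes (20.8%). The cytosine motif was in 25.4%, 24.1% and 25.5% of these sets. Genes with the guanine motif had a median log2 ratio of -0.14 and genes without it -0.13 by separate tables, while the series form gave 0.17 and 0.14.

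Other properties of the transcripts were nearly unrelated to the ratio. Across genes, which are not independent replicates, Spearman's rho of the log2 ratio was 0.01 with transcript length, 0.04 with GC content and 0.01 with the number of exons in the separate tables (4331 genes). In the series table it was -0.01, 0.09 and -0.00. With the mean log2 FPKM of the 2 libraries rho was -0.01 in both forms. In the class of shortest transcripts (201 to 1482 nt) the median log2 ratio was -0.14, and in the class of longest (4804 to 106824 nt) it was -0.15. EZH2-enriched genes had a median transcript length of 3188 nt, IgG-enriched genes 3083 nt and all measured genes 2841 nt. Genes that hold an annotated small RNA of under 200 nt on their strand made up 7.26% of the EZH2-enriched, 9.64% of the IgG-enriched and 9.67% of the measured genes.

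A few genes with many fragments departed from the rest. These were chosen after their values were seen. Of the 665 genes with more than 320 estimated fragments, 14 were EZH2-enriched and 14 IgG-enriched. Tmem161a, a transmembrane protein gene, was the only EZH2-enriched gene with more than 640. Its FPKM was 4.76 in IgG and 71.5 in anti-EZH2, with ratios of 15 and 52.3, and the deposited anti-EZH2 interval of 5.57 to 21 lay below the value itself. In Sham its ratios were 11.5 and 55.2, and at AngII 24 h they were 0.314 and 0.601. U2surp, of the U2 spliceosome, was at 1.21 and 20, and Mrm1, a methyltransferase of mitochondrial ribosomal RNA, at 1.17 and 21.4. Fn1, the matrix protein fibronectin, was closer to the threshold, at 3.34 and 6.95.

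On the IgG side the deepest genes were Ptp4a1, a phosphatase (62.8 in IgG and 29.8 in anti-EZH2), and Huwe1, a very large ubiquitin ligase (19.6 and 5.53). Ran, the GTPase of nuclear transport, was at 45.2 and 16.5. Igf2r, the receptor that carries lysosomal enzymes, was at 10.8 and 5.15. Ppp2r5a, a regulatory subunit of protein phosphatase 2A, was at 34.5 and 7.53, and its ratios were 0.218 and 0.109. With Vapb and Ict1 these were all 7 IgG-enriched genes above 640 fragments.

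For genes of 1 annotated transcript, fragments were estimated from the FPKM and rounded to whole numbers. The exact interval was taken on these estimates. There were 228 of them, with medians of 47.0 fragments in IgG and 66.5 in anti-EZH2, and 6 were EZH2-enriched and 7 IgG-enriched. The exact interval of the ratio lay above 1 in 13 genes and under 1 in 44, where the median ratio was 0.906. It lay above 2 in 2 genes and under 0.5 in 0 genes. The other gene above 2 was Gm20594, with 387 and 2404 fragments and a ratio of 4.14 in the separate tables, but its ratio was 0.936 in the series table.

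The most abundant messenger RNAs of the ventricle were close to even. Myl2, the ventricular myosin light chain, was at 3934 FPKM in IgG and 3181 in anti-EZH2, with ratios of 0.809 and 1.00. For Mb (myoglobin), Tnni3, Tpm1, Myl3, Tnnt2, Myh6, Actc1 and Gpx4, the ratio in the separate tables was between 0.875 (Gpx4) and 1.02 (Tpm1). The exception was the entry of Lars2, the leucyl-tRNA synthetase of mitochondria, which had the highest listed FPKM of the measured nuclear genes. Lars2 was at 6443 and 11196 with a ratio of 1.74, and at 2486 and 5222 with a ratio of 2.10 in the series table. Both values of the separate tables lay above their own intervals (6078 to 6164 and 10581 to 10676). Whether all of its reads come from the Lars2 messenger RNA cannot be told from FPKM and was not tested.

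The genes of contraction were close to the median of all genes, as were other genes with many fragments. Of 32 measured sarcomere and Z-disc genes 0 were EZH2-enriched and 0 IgG-enriched. The list had a median of 1831 estimated fragments, and of all genes above 640 fragments 0.350% and 2.45% were enriched, so these counts do not set the list apart. Their median log2 ratio was -0.09 (all genes, -0.13) in the separate tables and 0.16 (all genes, 0.15) in the series table. The highest was Nexn, an actin-binding Z-disc protein, at 36.9 in IgG and 59.9 in anti-EZH2 (ratios 1.62 and 2.36). The lowest was Myom2, an M-band protein, at 37.2 and 21.6 (0.581 and 0.786). Of 24 calcium handling and ion channel genes, Kcnj3 alone was enriched. Atp2a2, the calcium pump of the sarcoplasmic reticulum, was at 436 and 394, and Pln, its inhibitor, at 273 and 216. Cacna1c, the L-type calcium channel, was at 6.57 and 12.4, with a ratio of 1.89 in the separate tables and 2.35 in the series table.

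The genes of energy metabolism, also with many fragments, were seldom enriched. The counts were 1 EZH2-enriched and 0 IgG-enriched of 76 nuclear OXPHOS genes, 1 and 0 of 26 fatty acid oxidation genes, 0 and 0 of 35 genes of glycolysis and the TCA cycle, and 0 and 0 of 10 creatine kinase and energy transfer genes. The lists had medians of 639, 817, 841 and 1909 estimated fragments, a depth at which few genes of any kind were enriched (3.43% and 1.85% of those with 320 to 640, 0.350% and 2.45% above 640). The median log2 ratios were -0.14, -0.09, -0.05 and -0.10 by separate tables (all genes, -0.13), while the series form gave 0.13, 0.25, 0.23 and 0.21 (all genes, 0.15). Atp5b, a catalytic subunit of ATP synthase, was at 738 in IgG and 608 in anti-EZH2. Gapdh, a glycolytic enzyme, was at 281 and 210, and its ratio of 0.745 became 1.03 in the series table. The enriched fatty acid oxidation gene was Ppara, the nuclear receptor that drives this pathway, at 2.40 and 8.65. The enriched OXPHOS gene was Atp5sl, an assembly factor, at 2.86 and 14.1. The 3 mitochondrially encoded genes matched in both forms, mt-Co1, mt-Cytb and mt-Nd6, had ratios of 0.875, 0.825 and 0.823 by separate tables, while the series form gave 1.38, 0.912 and 1.27.

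Ribosomal and translation genes were also near the centre. Of 80 cytosolic ribosomal protein genes, Rpl22l1, a variant of a ribosomal protein, alone was enriched, towards IgG (36.7 and 2.33). Of 69 mitochondrial ribosomal protein genes Mrpl48 was EZH2-enriched (9.32 and 21.5) and Mrpl39 IgG-enriched (5.56 and 1.98). Among 50 translation factors Eef1e1 was EZH2-enriched and 0 were IgG-enriched. Of 32 proteasome genes, Psmb4 was EZH2-enriched (12.3 and 34.8) and Psmd13 IgG-enriched (40.4 and 6.31). The deposited intervals of Psmd13 overlapped (4.14 to 133 and 2.65 to 12.7). The lists had medians of 295, 89.0, 122 and 135 estimated fragments. Of all genes with 80 to 160 fragments, 8.20% were EZH2-enriched and 5.87% IgG-enriched, and with 160 to 320, 5.22% and 4.73%. The list medians of the log2 ratio were -0.17, -0.20, 0.02 and -0.08 in the separate tables (all genes, -0.13). The series table gave 0.08, 0.13, 0.29 and 0.04 (all genes, 0.15). Rpl13a, a gene that holds small nucleolar RNAs, shows how far the forms can part. Its ratio was 1.17 in the separate tables and 5.05 in the series table. For Nop56, another such host, these ratios were 3.12 and 0.247, and for Eif4a1 0.465 and 1.10.

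RNA-binding and splicing genes leaned to IgG in count at 4 h. Of 40 measured hnRNP and SR splicing factors, 6 were IgG-enriched (15%, against 7.66% of all genes) and 1 was EZH2-enriched. The median was -0.27 in the separate tables and -0.03 in the series table, which is 0.14 and 0.18 below that of all genes. In the other groups the list lay above all genes. Its medians in the separate tables were -0.20 in Sham (all genes, -0.33) and -0.59 at AngII 24 h (all genes, -0.62). The series table gave 0.16 (all genes, -0.01) and 0.23 (all genes, 0.05). Of the 6, Snrpe, Snrpd1 and Snrpg are core proteins of the spliceosomal particles and Sf3b6 belongs to the U2 particle. They were at 3.23 and 0.417, 2.70 and 0.789, 14.1 and 4.22, and 4.59 and 1.78. For Snrpe and Snrpd1 fewer than 10 estimated fragments stood behind the ratio, and for Sf3b6 21.3. Of all genes with up to 20 fragments, 23.6% were IgG-enriched. The list had a median of 106 fragments, and in the class of 80 to 160 fragments 5.87% of all genes were IgG-enriched. Hnrnpll, a splicing repressor, was at 2.39 and 1.15. Srsf1, a founding SR protein, was at 14.8 and 4.62 with an estimated 314. Srrm1, an SR-related matrix protein, was the EZH2-enriched member at 3.04 and 8.49. The abundant Hnrnpk and Hnrnpa2b1, binders of nascent transcripts, had ratios of 1.15 and 0.811. Of 17 genes known for retained introns, among them Clk1 (ratio 0.412) and Clk4 (1.70), 0 were enriched on either side.

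Zinc finger genes leaned to anti-EZH2 and had the widest quartiles of the lists with at least 10 measured members. Many of these C2H2 genes lie in clusters and code for DNA-binding repressors. Of the 377 listed genes 32 were measured, 8 were EZH2-enriched (25%, against 8.26% of all genes) and 4 IgG-enriched (12.5%, against 7.66%). Their median log2 ratio was 0.10 (quartiles -0.42 and 1.06) in the separate tables and 0.62 in the series table, which is 0.23 and 0.47 above all genes. The 8 were Zfp488, Zfp433, Zfp945, Zfp637, Zfp961, Zfp397, Zfp386 and Zfp68, with ratios from 5.37 (Zfp488) to 2.04 (Zfp68). The 4 were Zfp551, Zfp629, Zfp825 and Zfp451, with ratios from 0.0476 (Zfp551) to 0.324 (Zfp451). Zfp945, at 1.5 and 4.51, had the most estimated fragments of the 12, 260. The list had a median of 62.8 fragments, and in the class of 40 to 80 fragments 10.5% of all genes were EZH2-enriched. Its median FPKM in IgG was 1.77 (all genes, 4.99), and a low gene can be measured through its higher library alone. In the separate tables Zfp488, Zfp433, Zfp961 and Zfp397 were under 1 FPKM in IgG, and the 4 IgG-enriched genes in anti-EZH2. With an FPKM minimum of 5, 1 gene of the list was left. The lean and the wide quartiles cannot be told apart from this effect of the filter. In Sham the median of the 32 zinc finger genes was 0.10 (all genes, -0.33), and at AngII 24 h it was -0.44 (all genes, -0.62).

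Chromatin genes, the targets and partners of EZH2 included, were mostly too low to be measured. Ezh2 was at 1.05 FPKM in IgG (interval 0 to 3.15) and 1.19 in anti-EZH2 (0.165 to 3.09) and was below 1 in the series table. Eed was at 2.21 and 0.987, and also below 1 in the series table. Suz12 was at 3.98 and 2.49, with ratios of 0.624 and 0.883. Of 32 Polycomb and H3K27 genes 7 were measured. Rbbp4, a histone-binding subunit of PRC2, was EZH2-enriched at 3.26 and 8.22, and Pcgf5, of Polycomb repressive complex 1, was IgG-enriched at 4.84 and 1.65. With 1 gene each this is 14.3% on each side, against 8.26% and 7.66% of all genes. The deposited intervals of Rbbp4 overlapped (0.902 to 6.43 and 4.52 to 11.9). The related Rbbp7 was at 9.41 and 10.3. Among 16 measured chromatin remodellers and deacetylases, Sirt1 (0.323 and 1.38) and Kdm5a (1.23 and 3.33) were EZH2-enriched and Chd2 (6.08 and 2.14) was IgG-enriched. These are 12.5% and 6.25% of the list. Counts this small do not set either list apart from all genes.

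Few genes of classic Polycomb target families were measured. Of 193 developmental regulators of families known as PRC2 targets, 8 were measured, 0 were EZH2-enriched and 1, Foxk2, was IgG-enriched (3.29 and 0.882). This is 0% and 12.5%, against 8.26% and 7.66% of all genes, and 8 genes are too few to set the list apart. Foxn3, the most abundant of the 8, was at 27.5 and 10.8, and its ratio of 0.394 became 2.11 in the series table. Nkx2-5, a cardiac homeobox factor, was at 7.62 and 6.25. Of 12 measured cardiac lineage transcription factors 0 were enriched, a count that does not set so short a list apart. Mef2c, at 3.28 and 7.00, was the highest of them with ratios of 2.13 and 1.63. Of 1346 olfactory and vomeronasal receptor genes 0 were measured.

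Few genes known to answer AngII or stress were enriched after 4 h. Their lists had 8 to 12 measured genes each, so counts of 0 or 1 do not set them apart from all genes. Of 8 measured immediate early genes (31 listed) Jund, an AP-1 subunit, was EZH2-enriched (1.99 and 4.35), which is 12.5% against 8.26% of all genes. Rrad and Ctgf had ratios of 0.957 and 0.988. Of 10 measured hypertrophy and fetal genes (20 listed) 0 were enriched. Nppb, the B-type natriuretic peptide gene, had 53 fragments in IgG and 86 in anti-EZH2, a ratio of 1.08 with an exact interval from 0.759 to 1.55. Nppa, the A-type peptide, had 37 and 54, a ratio of 0.961 with an interval from 0.628 to 1.52. Ankrd1, a stress-induced titin-binding protein, had a ratio of 0.860. Agtr1a, the AngII receptor of the heart, was at 2.67 and 2.09, on an estimated 7.44 fragments. Fkbp5 was the 1 enriched gene of 12 glucocorticoid-responsive genes (8.33%, against 8.26% of all genes). Pdk4 (53.0 and 43.3) and Klf15 (5.87 and 3.46) of the same list were the lower in anti-EZH2. Of 9 clock genes Bhlhe40, a repressor in the clock, was IgG-enriched (11.3 and 2.19), which is 11.1% against 7.66% of all genes.

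Genes of the other cells of the ventricle gave few enriched members. These were Fn1 of 26 matrix and fibroblast genes, Tek, the angiopoietin receptor, of 14 endothelial genes (1.57 and 4.69), H2-Eb1 and Tyrobp of 9 leukocyte genes, and Alas2, of haem synthesis, of 5 erythroid genes (1.35 and 3.9). All 5 were EZH2-enriched, which is 3.85%, 7.14%, 22.2% and 20% of these lists in turn, against 8.26% of all genes, and each list held 1 or 2 of them. Tyrobp rested on an estimated 11.4 fragments and H2-Eb1 on 46.9. Abundant genes of the same cells were near even in the separate tables. Hbb-bs, a beta globin gene, was at 188 and 187, and Cd36 at 100 and 95.9. Lyz2, with 74 and 98 fragments, had a ratio of 0.878 (exact interval 0.646 to 1.21). Of the most abundant matrix genes, Gsn had ratios of 1.19 and 1.52 in the separate and series tables, and Mgp 0.910 and 1.03. The lowest matrix gene was Dpt, with 65 and 48 fragments and a ratio of 0.486 (0.332 to 0.726). The highest was Col1a1, with ratios of 2.49 and 1.26.

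The remaining lists held 0 to 2 enriched genes each. Of 15 histone genes, which code largely for the nucleosome core, 2 were IgG-enriched (13.3%, against 7.66% of all genes). These were the variant H2afv (12 and 3.55) and Hist2h2bb (8.51 and 1.4, with an estimated 10.1 fragments). Of 13 genes of ribosome biogenesis, Rrp9 was EZH2-enriched and Wdr12 IgG-enriched (2.2 and 0.966), which is 7.69% on each side. Of 17 giant muscle and cytoskeletal transcripts, Ank3, an ankyrin, was EZH2-enriched (3.27 and 6.75) and Huwe1 IgG-enriched, which is 5.88% on each side. Ttn, titin, was at 72 and 66.2. The shares of all genes were 8.26% EZH2-enriched and 7.66% IgG-enriched. In the lists of chaperones (23 measured genes), the renin-angiotensin system and calcineurin (9), smooth muscle and pericytes (5), the cell cycle (5), adipose tissue (3), acute inflammation (2), the atria (2) and neurons (1), 0 genes were enriched. Apart from the chaperones these lists had 9 measured genes or fewer, so counts of 0 do not set them apart. The chaperone list had a median of 407 estimated fragments. Of all genes with 320 to 640 fragments, 3.43% were EZH2-enriched and 1.85% IgG-enriched. Among the members of these lists, Hspd1, a mitochondrial chaperonin, was at 19.1 and 29.7, and Stat3, a signal transducer of cytokines, at 21.6 and 11.1.

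**Figure D4:**
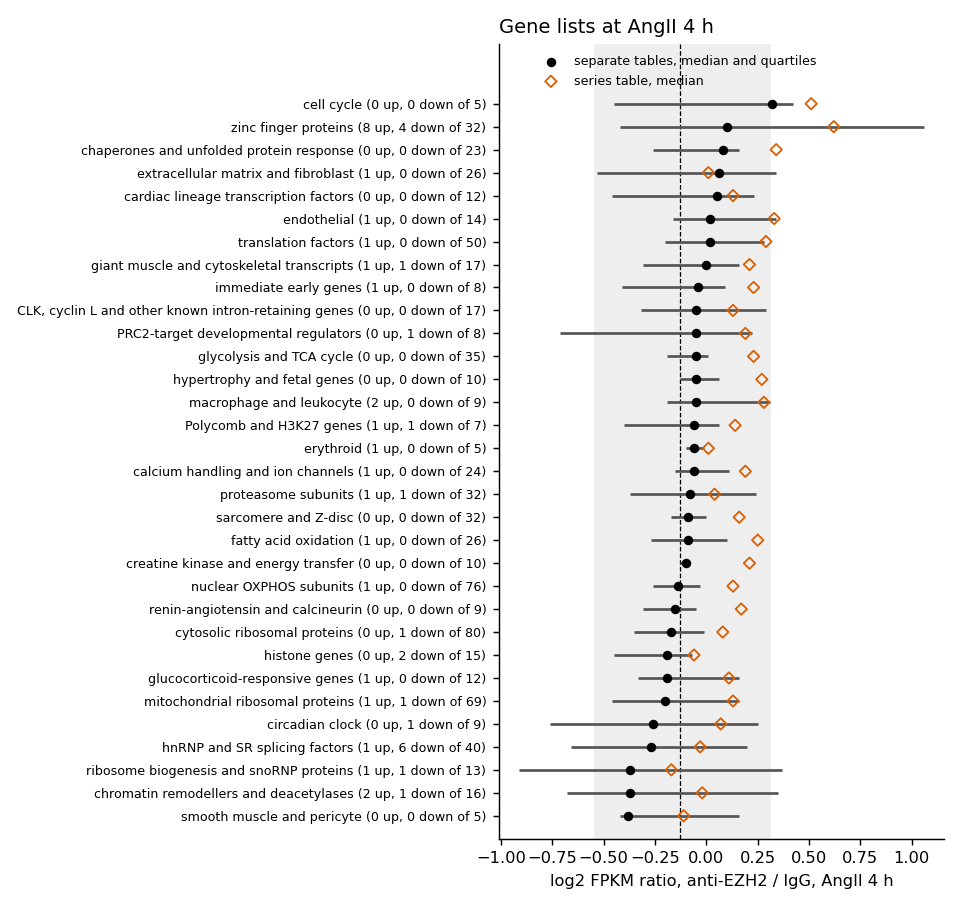
Median (black point) and quartiles (line) of the log2 anti-EZH2/IgG ratio at AngII 4 h for each gene list with at least 5 measured members, separate tables, with the series-table median as an open diamond. The grey band and dashed line are the quartiles and the median (-0.13) of all measured genes in the separate tables; labels give the EZH2-enriched (up) and IgG-enriched (down) counts. Zinc finger genes have the highest median of the lists with over 5 members, 0.10.

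Families cut by the letters of the gene symbol, without regard to function, ranged little. Of 15 families with at least 20 measured members, the lowest medians in the separate tables were those of Mrps (-0.31), Rab (-0.29) and Tmem (-0.20), and the highest those of Zfp (0.10), Fam (0.08) and Eif (0.04), against -0.13 for all genes. In the series table the same 6 medians were 0.04, 0.02, 0.00, 0.62, 0.37 and 0.27, against 0.15 for all genes. The Zfp family overlaps the zinc finger list above, with the same counts of 8 EZH2-enriched and 4 IgG-enriched genes, and is not a separate observation. Rab11a, a GTPase of recycling endosomes, was IgG-enriched at 31.5 and 12.5, while Rab7, of late endosomes, was at 22.2 and 21.0. Eif1, a start-codon selection factor, had ratios of 1.08 and 1.91. By chromosome, the share of EZH2-enriched genes ran from 3.55% of 141 genes on chromosome 15 to 15% of 247 genes on chromosome 3.

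The 4 h ratios of single genes carried over little to the other groups. The 3 pairs share no library. Across the 3509 genes measured in all groups with an estimate of fragments, Spearman's rho of the log2 ratio at 4 h was 0.02 with Sham and 0.04 with AngII 24 h by separate tables, and, in the series form, 0.05 and 0.04. Over the 286 genes with more than 640 fragments at 4 h these were 0.07 and 0.21, and -0.01 and 0.15. By the rule of both forms, the other pairs had more IgG-enriched than EZH2-enriched genes. In Sham 457 of 4777 genes (9.57%) were EZH2-enriched and 636 (13.3%) IgG-enriched, and at AngII 24 h these were 518 of 5839 (8.87%) and 914 (15.7%). This balance depended on the form, since the series table alone had 745 of these Sham genes above 2 and 718 under 0.5, and 1206 and 974 at AngII 24 h. The separate tables had a median log2 ratio of -0.34 in Sham and -0.57 at AngII 24 h, against -0.01 and 0.11 in the series table.

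The 2 libraries of AngII 4 h were more alike than any other pair of the 6. Over 3332 genes measured at 4 h and above 1 FPKM in every library, Pearson's r of log2 FPKM between them was 0.908 in the separate tables, and the next highest pair had 0.902. All 6 libraries come from the same tissue, so a high r across genes is shared by every pair. The 4 h anti-EZH2 library had an r of 0.890 with the Sham anti-EZH2 library and 0.882 with that of AngII 24 h. In the series table (2366 genes) these were 0.931, 0.904 and 0.847.

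Enriched genes of 4 h were past 2-fold in the other groups more often than all genes measured in both, on both sides, by a margin that varied with depth. Of 232 EZH2-enriched genes also measured in Sham, 52 were EZH2-enriched there (22.4%, Wilson 95% interval 17.5% to 28.2%, against 6.37% of the 3736 genes measured in both). In addition, 44 were IgG-enriched there (19%, 14.4% to 24.5%, against 10.2%). Of 267 also measured at AngII 24 h, 36 were EZH2-enriched there (13.5%, 9.90% to 18.1%, against 4.48%) and 72 IgG-enriched (27%, 22% to 32.6%, against 13.1%). The share of 13.5% depended on the centre of the ratios, since it was 27.1% by the series table alone and 21.7% with ratios divided by the median ratio of each group. Of the 4 h IgG-enriched genes, 48 of 219 were IgG-enriched in Sham (21.9%, against 10.2%) and 25 EZH2-enriched (11.4%, against 6.37%). At AngII 24 h, 61 of 241 were IgG-enriched (25.3%, against 13.1%, and 38.5% by the separate tables alone). There 22 were EZH2-enriched (9.13%, against 4.48%). Among EZH2-enriched genes with more than 160 fragments, 8 of 42 were EZH2-enriched in Sham (19%, against 3.71% of 1428 genes at this depth) and 10 were IgG-enriched (23.8%, against 6.02%). With up to 80 fragments, EZH2-enriched genes were EZH2-enriched in Sham in 22.1% (against 9.21%) and IgG-enriched in 20.5% (against 15.5%). IgG-enriched genes of this depth were EZH2-enriched nearly as often as all genes, 10.2% against 9.21% in Sham and 9.29% against 7.01% at AngII 24 h. They were IgG-enriched in Sham in 22.7%, against 15.5%. With more than 160 fragments, 8 of 48 IgG-enriched genes were EZH2-enriched in Sham (16.7%, against 3.71%) and 6 of 47 at AngII 24 h (12.8%, against 2.26%). At this depth they were IgG-enriched in 14.6% in Sham (against 6.02%) and in 21.3% at AngII 24 h (against 9.47%).

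**Figure D5:**
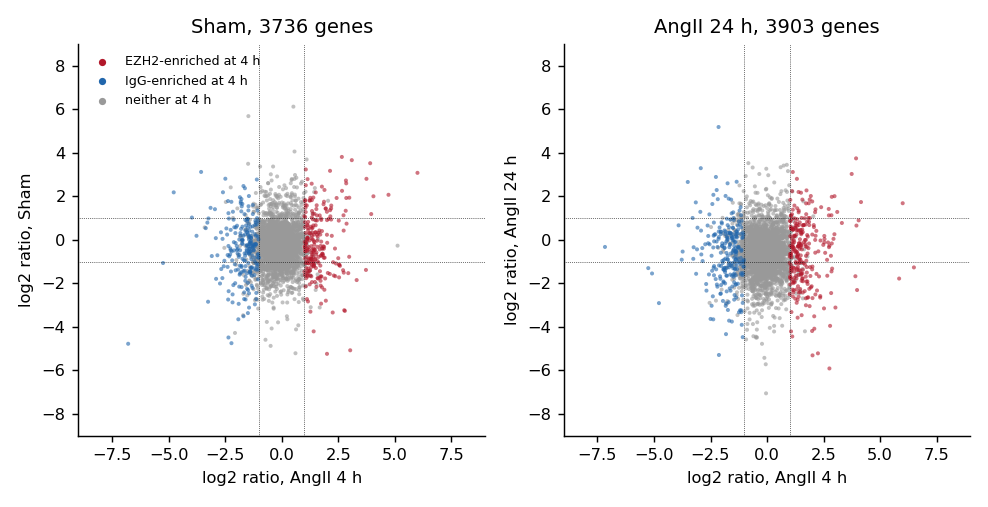
Log2 anti-EZH2/IgG ratio at AngII 4 h (x axis) against the ratio in Sham (left, 3736 genes) and at AngII 24 h (right, 3903 genes), separate tables, 1 point for each gene measured in both groups. Red, EZH2-enriched at 4 h; blue, IgG-enriched at 4 h; grey, neither; dotted lines mark 2-fold. Red and blue points spread above and below 0 in both panels.

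Only 12 genes were EZH2-enriched in all 3 groups, and 7 were IgG-enriched in all 3, of 3510 measured in all. Ppara had the steadiest ratios of the first set. Its FPKM in IgG and anti-EZH2 was 3.10 and 9.66 in Sham, 2.40 and 8.65 at 4 h and 2.26 and 7.26 at 24 h, with ratios of 3.11, 3.60 and 3.21. In every group the anti-EZH2 library was the higher, which the rule for this set requires. At 4 h, however, the deposited intervals of Ppara overlapped (0.698 to 8.09 and 3.10 to 14.5). Meaf6, a subunit of histone acetyltransferase complexes, had the highest mean ratio, with 8.46, 64.1 and 3.21, but it was at 0.0875 FPKM in the 4 h IgG library. Dhtkd1, a mitochondrial dehydrogenase of lysine breakdown, had ratios of 6.99, 13.4 and 8.16. Fastkd2, which binds mitochondrial RNA, had 3.85, 2.63 and 4.6. Zc2hc1a, Lactb2, Tnfrsf22, Ppp1r21, Zfp386 and Luzp1 had ratios between 2.20 (Zfp386) and 7.92 (Zc2hc1a) at 4 h.

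Among the genes that were IgG-enriched in every group were Sp1, a general transcription factor, Nup54, a nuclear pore protein, Aldh3a2, a fatty aldehyde dehydrogenase, Ccdc101, Ppp4r1 and Cacfd1. Sp1 was at 6.24 FPKM in IgG and 0.813 in anti-EZH2 in Sham, 18.5 and 4.94 at 4 h, and 12 and 4.62 at 24 h. For Nup54 an estimated 6.26 fragments stood behind the 4 h ratio.

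Named genes of 4 h differed in whether they were found again. Zfp488 had ratios of 3.8 in Sham and 2.34 at 24 h in the separate tables, and Fgd4 3.54 and 1.56. Eef1e1 had 3.19 at 24 h and was listed at 0 in both Sham libraries. Fkbp5 had 1.10 and 0.407, Ppp1r2 0.628 and 0.347, and Rrp9 0.278 and 1.71. On the IgG side Bphl, at 0.165 after 4 h, had a ratio of 6.07 in Sham and 0.898 at 24 h, and Rbm7, at 0.183, had 0.759 and 0.123. No difference between groups could be tested with 1 library each.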

How the data were processed

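Left ventricles were analysed by native RIP with anti-EZH2 or normal IgG. The authors pooled 2 RIP products per library, prepared stranded libraries, sequenced them on an Illumina NextSeq 500, mapped the reads to mm10 with TopHat2 and deposited FPKM in 2 forms, a table of the series and a table of each library with Ensembl identifiers. The deposited separate tables also hold lower and upper limits of each FPKM, of which impossibly large ones were left out. The program that made the FPKM is not given in the sources used here.

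Genes were matched by identifier and symbol to GENCODE M21 (GRCm38, the assembly of mm10), and 60 genes with several entries and 245 entries of the series table without a name were left out. Values under 0.001 FPKM were set to 0. No pseudocount was used. The value of 1 fragment was found from low FPKM of genes of 1 transcript and at least 400 nt, with a fragment length model of 200 nt (SD 80 nt, shortest 34 nt). At 4 h, 61.6% (IgG) and 66.8% (anti-EZH2) of low values were whole to within 0.1 fragments. For genes of several transcripts the fragments are rough.

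The genes named were chosen by rule: the 15 EZH2-enriched and 15 IgG-enriched genes by the ratio of interval limits, the 10 most abundant, Ezh2, Eed and Suz12, of each of 38 lists the most abundant members and those with the highest and lowest ratio among members above 1 FPKM in both libraries and both forms, the 10 genes highest in all groups, and members of the extreme families. Enriched members of lists and genes above 320 fragments were named after their values were seen. Members and lists were chosen with earlier results of these data known. Under Python 3.11.15, tables were handled with pandas 2.3.3 and numpy 2.4.6, intervals came from scipy 1.17.1 and plots from matplotlib 3.10.9. The calls, the value of 1 fragment and the exact interval were run on simulated data, the calls with counting noise alone. There both forms of table had the same ratios, so disagreement between the forms was not tested. With 1 library per antibody, no test or p-value was possible within the AngII 4 h group or between groups in the ratio, and the antibodies were not tested over the 3 groups as pairs. Shares have Wilson 95% intervals, which treat genes as independent draws. Ratios of estimated fragments, rounded to whole numbers, have exact Clopper-Pearson 95% intervals, for counting error only and not for the error of the estimate. Neither kind covers variation between replicate libraries. Alternatives for form of table, FPKM minimum, pseudocount, zero rule, threshold, centring, intervals and hosts of small RNAs were tried.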

Additional observations from a re-analysis of the deposited data

Results flagged for a closer look

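Some genes moved past 2-fold in opposite directions in 2 groups, in both forms of table. Of the genes EZH2-enriched at AngII 4 h, 44 of 232 were IgG-enriched in Sham (19%, against 10.2% of all genes measured in both groups) and 72 of 267 at AngII 24 h (27%, against 13.1%). Of the genes IgG-enriched at 4 h, 25 of 219 were EZH2-enriched in Sham (11.4%, against 6.37%) and 22 of 241 at AngII 24 h (9.13%, against 4.48%). For those with up to 80 fragments these shares were close to all genes of that depth, 10.2% against 9.21% and 9.29% against 7.01%. For those with more than 160 fragments they were well above all genes of that depth. The shares were 16.7% (8 of 48) against 3.71% in Sham and 12.8% (6 of 47) against 2.26% at AngII 24 h. With 1 library per antibody and group these differences were not tested.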

How the results depend on the processing

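The counts of enriched genes followed the filters more than any other choice, and the filters also set how many genes were measured. The main counts were 358 EZH2-enriched and 332 IgG-enriched genes among 4332 measured. They were 607 EZH2-enriched among 4384 by the series table alone, and 868 and 1117 among 7401 by the separate tables alone. With an FPKM minimum of 0.1 they were 1218 and 1057 among 10343 genes, and with no minimum 1302 and 1211 among 11246. A minimum of 5 gave 26 and 27 among 893, and a minimum of 10 gave 9 and 8 among 442. They were 67 and 78 among 3014 with an FPKM above 1 in both libraries, and 137 and 98 among 4357 with a pseudocount of 1. Among the same 4332 genes they were 658 and 611 at a ratio above 1.5, 84 and 75 at a ratio above 4, and 32 and 51 with FPKM intervals apart. The other settings for the counts stayed within 1.5 times. With fragments from the width of the FPKM interval, 0% of the deepest class (above 640) was enriched in either direction, against 0.350% and 2.45%. The share of EZH2-enriched genes with the guanine motif was 0% of 9 genes with an FPKM above 10, and 6.15% by the shortest transcript. EZH2-enriched genes found again in Sham were 33.3% of 3 genes with an FPKM above 10, and at 24 h 27.1% by the series table, 21.7% after centring and 0% of 4 with an FPKM above 10. IgG-enriched genes found again in Sham were 30.4% by the separate tables and 40% of 5 with an FPKM above 10. At 24 h they were 38.5% by the separate tables, 19.5% after centring and 75.0% of 4 with an FPKM above 10. The causes were not tested. Of 185 named ratios, 29 differed by more than 1.5-fold in the series table, 26 of them higher there. Of 179 list medians under alternatives, 34 left the quartiles of the list. No paired analysis was possible because the comparison at AngII 4 h has 1 pair of libraries, and for the same reason no replicate could be left out. The antibody effect over the 3 groups taken as pairs was not tested here.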

Other observations

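A few genes were listed at 0 in 1 library of AngII 4 h and above 1 FPKM in the other in both forms of table, and so were not among the measured genes. In 10 genes the IgG library was at 0, among them Spice1, a centriole protein gene, at 2.11 FPKM in anti-EZH2, Nme8, of the sperm tail and cilia, at 4.61, and Rgs19, a regulator of G protein signalling, at 5.22. In 8 genes the anti-EZH2 library was at 0, among them Prss36, a serine protease gene, at 11.5 FPKM in IgG, and Apex1, a DNA repair enzyme that most cells express, at 5.01. These examples were chosen after their values were seen, and no ratio is given against a value listed at 0.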
